A study of Homo sapiens with 6 samples.

Results

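The genes described here encode proteins that find and replace single damaged or mispaired bases and bulky lesions in DNA, and that join the single-strand breaks made on the way. They were chosen by gene symbol: 42 of the 62710 genes in the count table, of which 5 belong to mismatch repair, 18 to base excision and single-strand break repair, and 19 to nucleotide excision repair. Their transcripts were measured by poly(A)-selected RNA-seq in A549, an established cell line from a human lung adenocarcinoma. In the PS-MP group (3 libraries), polystyrene microplastics, small particles of a common plastic, had been in the medium for 48 h at 20 mg/mL, as the labels give the dose. In the control group (3 libraries), A549 cells received no particles. The labels name no other agent, genotype change or irradiation for either group, and they do not say whether replicates were separate cultures, so p-values measure a spread that may be technical.

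Mismatch repair corrects bases that were wrongly paired during DNA copying: MutS proteins recognise the mismatch and MutL proteins start the removal of the new strand. Base excision repair begins with a glycosylase that removes an oxidised, deaminated or alkylated base, after which an AP endonuclease opens the strand, a polymerase fills the gap and a ligase seals it, while PARP enzymes sense the open break. Nucleotide excision repair removes helix-distorting lesions: they are recognised across the genome by XPC or at stalled RNA polymerase by the Cockayne syndrome proteins, the TFIIH complex opens the helix, and nucleases cut on either side.

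Total counts ran from 17541896 to 19119508 in the PS-MP libraries and from 17013293 to 21316451 in the controls, so that 3 counts equal 0.141 to 0.176 CPM (counts per 1e+06 counts). Replicate 3 stood apart in both groups: its log2 CPM correlated at 0.981 and 0.984 with the other PS-MP libraries and at 0.984 and 0.985 with the other controls, while replicates 1 and 2 correlated at 0.992 in PS-MP cells and 0.994 in controls. Mitochondrial transcripts took 12.4% of the counts in control 3, and between 15.6% and 17.8% in the other libraries. Of the epithelial markers, KRT8 and KRT18 were each at 2299 CPM or more in every library, while EPCAM lay between 1.75 and 2.43 CPM in PS-MP cells and between 2.15 and 2.83 CPM in controls. The markers of other cell types were mixed. SFTPA1 (alveolar type 2), CD3E (leukocyte), COL1A2 (fibroblast) and ERG (endothelial) were at 0 counts in every library, 4 of the 20 markers listed for these types. ABCA3, an alveolar type 2 marker, averaged 76.0 ± 1.21 CPM in PS-MP cells and 60.1 ± 21.2 CPM in controls, and CD14, a leukocyte marker, 28.6 ± 6.81 CPM in PS-MP cells and 22.3 ± 2.40 CPM in controls (SD, n = 3 each). Neither was called. They made up most of the summed level of their lists, which for alveolar type 2 was 76.7 to 79.1 CPM in PS-MP cells and 37.0 to 75.8 CPM in controls, and for leukocytes 23.8 to 36.7 CPM in PS-MP cells and 19.7 to 24.0 CPM in controls. The 5 endothelial markers summed to 0.579 to 0.955 CPM in PS-MP cells and 0.229 to 1.06 CPM in controls. Of the 5 fibroblast markers 4 were tested and 1 was called, against 9.56% of all tested genes. It was DCN, at 4.92 ± 1.78 CPM in PS-MP cells and 2.28 ± 0.114 CPM in controls (SD, n = 3 each). The summed level of the 5 was 10.0 to 14.2 CPM in PS-MP cells and 6.73 to 8.50 CPM in controls. The DCN call was lost without PS-MP 1 (adjusted p = 0.0518), control 1 (0.0612), control 2 (0.0784) or control 3 (0.0776). The part of these marker levels in the results below was not tested. In bulk RNA, fewer cells of a kind and less RNA per cell cannot be told apart.

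PS-MP cells had less transcript of 5 repair genes and more of 1. The mismatch recognition gene MSH6 fell, as did 4 genes of base excision and single-strand break repair: the glycosylase gene NEIL3, the break sensor gene PARP2, the ligase gene LIG3 and the scaffold gene XRCC1. The damage recognition gene XPC rose, and was the only one of 18 tested nucleotide excision repair genes to pass. The test was edgeR's quasi-likelihood test on counts with TMM scaling and Benjamini-Hochberg adjustment over all 15458 tested genes, with a threshold of 0.05, and every adjusted p below comes from it unless another tool is named. The 6 called genes were 14.6% of the 41 repair genes tested, against 9.56% of all tested genes. Genes called lower made up 1 of 5 in mismatch repair, 4 of 18 in base excision repair and 0 of 18 in nucleotide excision repair, against 4.65% of all tested genes. Genes called higher made up 0 of 5 in mismatch repair, 0 of 18 in base excision repair and 1 of 18 in nucleotide excision repair, against 4.91% of all tested genes. At an unadjusted p under 0.05, 2 mismatch repair, 7 base excision repair and 4 nucleotide excision repair genes passed in either direction, against 24% of all tested genes. DESeq2 and limma-voom called the same number of mismatch repair genes (1 lower, 0 higher), and limma-voom called 9% of all tested genes. DESeq2 called 5 base excision repair and 1 nucleotide excision repair genes lower, against 5.46% of the 15158 genes to which it gave an adjusted p, and 0 and 1 higher, against 5.75%. With no filter on low counts edgeR called 1 nucleotide excision repair gene lower, against 2.92% of 33003 genes. The median log2 fold change, PS-MP over control, was -0.11 in mismatch repair, -0.13 in base excision repair and 0.03 in nucleotide excision repair, beside 0.00 over all tested genes. The median absolute log2 fold change of the repair genes was 0.12, beside 0.21 over all tested genes. The 2 sets were not matched for expression level, and this measure also grows with counting noise. The remaining gene, GTF2H4, was not tested because of its low counts.

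**Figure D1:**
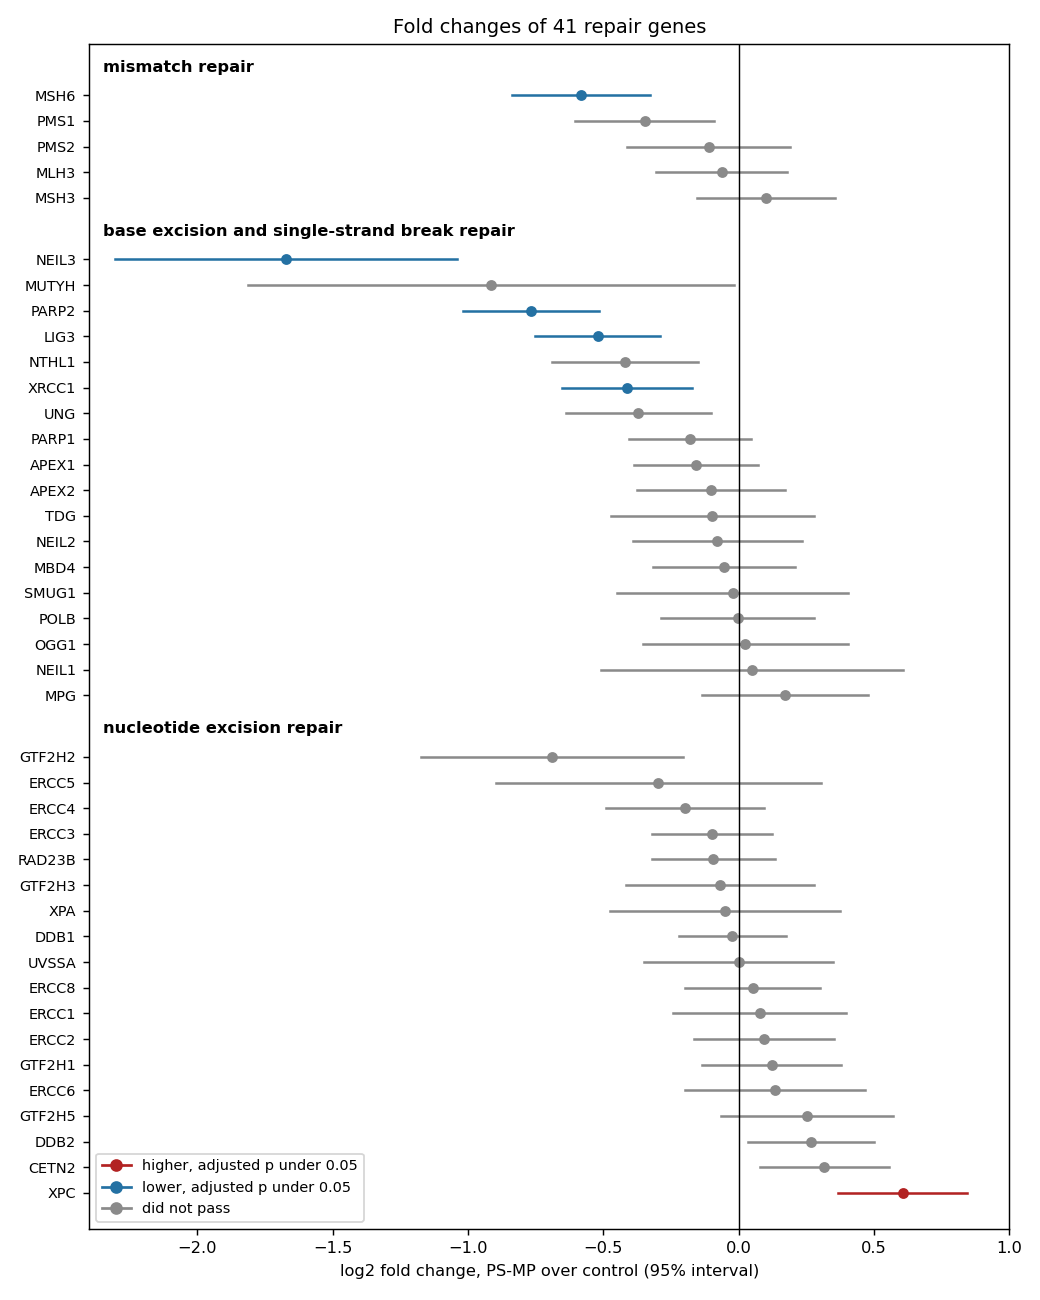
Log2 fold changes (PS-MP over control, horizontal axis) of the 41 tested repair genes, grouped by pathway and ordered by size, with 95% intervals from edgeR. NEIL3 lies farthest from 0 at -1.67, XPC is the only gene called higher, and the intervals of most nucleotide excision repair genes cross 0.

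To compare one gene with another, counts were divided by exon length and scaled to a common sum within each library (TPM, transcripts per 1e+06). Exon length was that of all annotated exons of a gene merged, so the order of genes depends on the annotation as well. The range was wide. APEX1, the main AP endonuclease gene, had the highest level per length of the 42 genes, at 277 ± 10.9 TPM in PS-MP cells and 334 ± 39.7 TPM in controls (SD, n = 3 each). RAD23B and CETN2, partners of XPC, followed at 105 ± 7.46 TPM in PS-MP cells and 121 ± 18.4 TPM in controls, and at 90.2 ± 5.85 TPM in PS-MP cells and 78.3 ± 8.20 TPM in controls. In CPM, DDB1 lay above APEX1, at 334 in PS-MP cells and 339 in controls, against 212 and 237. The merged exon length was 13950 bases for DDB1 and 1886 for APEX1, so their order depends on it. At the other end, MUTYH, whose glycosylase removes adenine paired with oxidised guanine, stood at 0.316 ± 0.0334 TPM in PS-MP cells and 0.646 ± 0.219 TPM in controls. ERCC5, which encodes the nuclease XPG, stood at 0.674 ± 0.141 TPM in PS-MP cells and 0.890 ± 0.216 TPM in controls. This value is uncertain, because 63.2% of ERCC5's exon length is shared on the same strand with the annotated readthrough gene BIVM-ERCC5, and how reads in shared exons were counted is not given in the sources used here. The TFIIH subunit gene GTF2H4 stood at 0.313 ± 0.0766 TPM in PS-MP cells and 0.190 ± 0.0517 TPM in controls. Levels per length therefore put the AP endonuclease and the XPC partners well above the glycosylases that feed the pathway, of which UNG was highest at 39.5 ± 3.03 TPM in PS-MP cells and 55.1 ± 10.2 TPM in controls. Within mismatch repair the control order was MSH6, PMS2, MSH3, PMS1 and MLH3. MSH6 and PMS2 did not differ beyond their spread in controls (21.4 ± 3.08 and 19.6 ± 3.62 TPM), and neither did PMS1 and MLH3 (9.23 ± 0.465 and 9.18 ± 0.863 TPM). In PS-MP cells MSH6 lay nearer to MSH3, at 13.2 ± 1.82 and 12.5 ± 1.61 TPM. Merged exon lengths were 10993 bases for MSH6, 3936 for PMS2 and 4709 for MSH3, and the place of MSH6 depends on them. In CPM, MSH6 averaged 88.0 in controls, against 28.9 for PMS2 and 22.2 for MSH3. In PS-MP cells MSH6 averaged 58.8 CPM and MSH3 23.7 CPM. The TPM scale shifts the median of all tested genes by -0.10 on the log2 scale between PS-MP and control cells, so differences between the groups are given on the TMM-normalised CPM scale throughout.

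**Figure D2:**
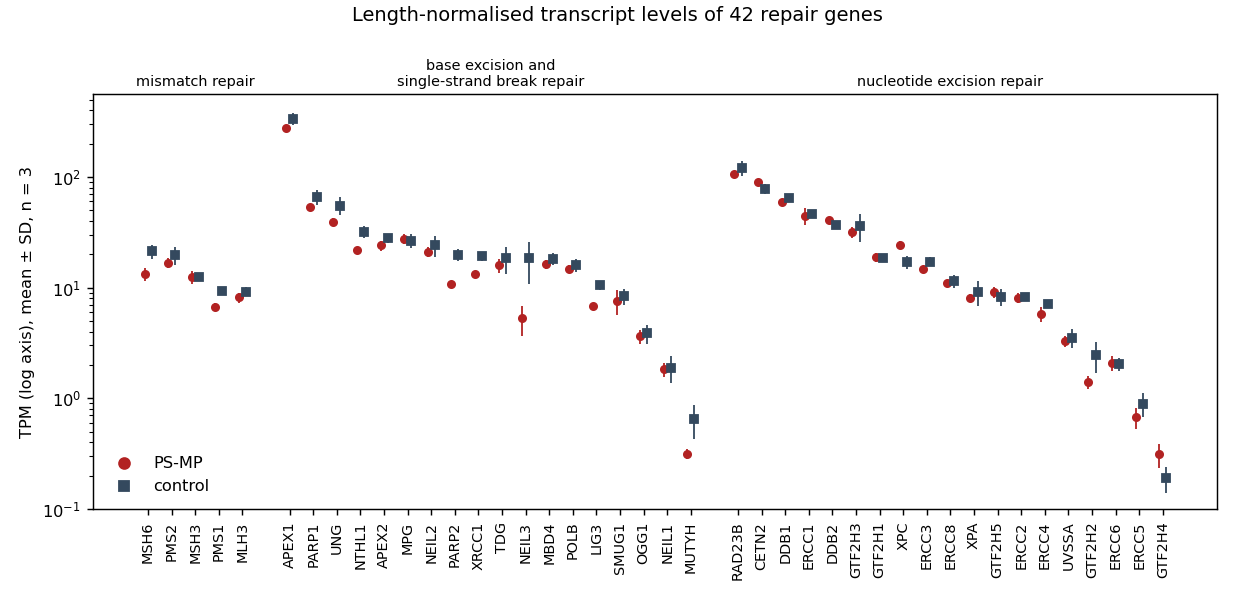
Length-normalised levels (TPM, log axis) of the 42 repair genes in PS-MP cells (circles) and controls (squares), as mean ± SD of 3 libraries, ordered within each pathway by the control level. APEX1 is highest at 277 TPM in PS-MP cells and 334 TPM in controls, and GTF2H4 lowest, under 1 TPM in both.

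The genes that passed the test lie on 6 different chromosomes, and 4 of their promoters hold at least 1 of the short motifs that were searched. Shares over all promoters are given below for each motif, but not for at least 1 of them. In the deposited annotation (GRCh38) they are MSH6 (ENSG00000116062) on chromosome 2 at 47695530 to 47810063, NEIL3 (ENSG00000109674) on chromosome 4 at 177309874 to 177362936, PARP2 (ENSG00000129484) on chromosome 14 at 20343615 to 20357904, LIG3 (ENSG00000005156) on chromosome 17 at 34980512 to 35009743, XRCC1 (ENSG00000073050) on chromosome 19 at 43543311 to 43580473 and XPC (ENSG00000154767) on chromosome 3 at 14145147 to 14178621. The promoter sequences below are those of the 4 called genes with a motif match, so they were selected by having one. They come from RefSeq (GRCh38.p14), span 250 bases before to 50 bases after the gene's start, and read 5′ to 3′ on the gene's strand, with motif matches in capitals. The motifs were the E2F site in its forms TTTCCCGC and TTTGGCGC, the cell cycle homology region TTTGAA, and CCAAT, each on both strands.
MSH6 (chr2:47782895-47783194, plus strand): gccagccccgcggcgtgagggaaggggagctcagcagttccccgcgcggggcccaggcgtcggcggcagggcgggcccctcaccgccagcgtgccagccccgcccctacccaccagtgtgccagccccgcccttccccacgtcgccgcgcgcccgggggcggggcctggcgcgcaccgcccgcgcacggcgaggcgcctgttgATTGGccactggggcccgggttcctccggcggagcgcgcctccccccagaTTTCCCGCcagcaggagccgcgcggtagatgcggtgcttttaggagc
NEIL3 (chr4:177309624-177309923, plus strand): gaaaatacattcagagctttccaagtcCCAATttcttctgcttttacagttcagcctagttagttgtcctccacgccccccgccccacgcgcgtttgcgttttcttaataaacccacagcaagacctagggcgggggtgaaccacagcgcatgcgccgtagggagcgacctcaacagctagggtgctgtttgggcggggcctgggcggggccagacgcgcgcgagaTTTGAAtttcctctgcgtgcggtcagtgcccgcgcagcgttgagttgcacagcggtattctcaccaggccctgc
XRCC1 (chr19:43575478-43575777, minus strand): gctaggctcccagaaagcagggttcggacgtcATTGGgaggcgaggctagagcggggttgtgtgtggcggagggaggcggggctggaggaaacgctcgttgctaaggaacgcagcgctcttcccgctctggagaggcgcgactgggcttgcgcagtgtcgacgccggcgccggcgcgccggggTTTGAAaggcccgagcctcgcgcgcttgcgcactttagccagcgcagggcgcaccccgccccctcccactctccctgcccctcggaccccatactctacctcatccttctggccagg
XPC (chr3:14178552-14178851, minus strand): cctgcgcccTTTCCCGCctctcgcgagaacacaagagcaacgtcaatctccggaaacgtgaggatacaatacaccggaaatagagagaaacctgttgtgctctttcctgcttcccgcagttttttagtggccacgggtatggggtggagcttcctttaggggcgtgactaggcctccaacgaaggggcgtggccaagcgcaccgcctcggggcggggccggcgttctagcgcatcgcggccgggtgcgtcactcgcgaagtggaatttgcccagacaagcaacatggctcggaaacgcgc
MSH6 holds TTTCCCGC from base 4 to base 11 of the transcript and CCAAT on the opposite strand at positions -47 to -43 relative to the start. For MSH6 the most upstream of the 4 starts in the RefSeq table was used. The gene spans in the deposited annotation begin 87615 bases upstream of that start for MSH6 and 4946 bases upstream for XRCC1. NEIL3 holds TTTGAA at positions -24 to -19 and CCAAT at -223 to -219. XRCC1 holds TTTGAA at positions -67 to -62 and CCAAT on the opposite strand at -218 to -214. XPC holds TTTCCCGC at positions -241 to -234. No match to these letters was found in the windows of LIG3 and PARP2. Of 35116 promoters of the same length in the table, 1.63% hold TTTCCCGC, 0.652% TTTGGCGC, 15.2% TTTGAA and 34.6% CCAAT. Among the 39 repair genes with a promoter in the table, TTTCCCGC was found in 2, TTTGGCGC in 1 (MSH3), TTTGAA in 3 and CCAAT in 21. These matches are letters in a window, and no binding was measured here.

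In mismatch repair, 1 of the 2 MutS genes fell and the other showed no detectable difference. MSH6 encodes the subunit that recognises single mispaired bases and short loops. It had 63.1, 51.8 and 61.5 CPM in PS-MP cells, against 83.1, 83.4 and 97.5 CPM in controls, so that every PS-MP library was below every control. The log2 fold change was -0.58 (SE 0.12), a 1.5-fold lower level, with an adjusted p of 0.00955. MSH3 encodes the alternative subunit, which recognises longer loops. It had 22.8, 22.2 and 26.3 CPM in PS-MP cells, against 22.3, 21.5 and 22.7 CPM in controls, and the groups overlapped. Its log2 fold change was 0.10 (SE 0.12), with a 95% interval of -0.16 to 0.35 and an adjusted p of 0.646.

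The MutL genes did not pass. PMS1, a MutL partner of uncertain role in human mismatch repair, had 15.7, 14.3 and 14.6 CPM in PS-MP cells, against 19.1, 18.9 and 18.8 CPM in controls. Its groups did not overlap, and the log2 fold change of -0.35 (SE 0.12) had an adjusted p of 0.0938. PMS2 encodes the subunit that nicks the new strand. It had 29.2, 28.1 and 23.0 CPM in PS-MP cells, against 25.0, 29.1 and 32.5 CPM in controls, with overlapping groups, a log2 fold change of -0.11 (SE 0.14) and an adjusted p of 0.670. PMS2 has near-identical pseudogene copies, and how reads that map to several places were handled is not given in the sources used here, so its counts are uncertain. MLH3, another MutL subunit gene, had a log2 fold change of -0.06 (SE 0.11) and overlapping groups.

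Among the 11 glycosylase genes of base excision repair, NEIL3 was the only one called, against 9.56% of all tested genes. NEIL3 removes oxidised bases, prefers single-stranded DNA and is known to be expressed mainly in dividing cells. It had 7.47, 7.68 and 3.93 CPM in PS-MP cells, against 15.7, 16.3 and 28.5 CPM in controls. All PS-MP libraries were below all controls, with PS-MP 3 the lowest and control 3 the highest. The log2 fold change was -1.67 (SE 0.29), or 3.19-fold lower, with an adjusted p of 0.00426. This was the largest change in size among the 41 tested repair genes. Without control 3 and PS-MP 3, left out together once the data had been seen, its log2 fold change was -1.08 (adjusted p = 5.56e-05). The size of the NEIL3 difference thus depended on those libraries. That setting called 26.6% of all genes it tested, so passing there is no further support for the call.

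The remaining glycosylases for oxidised and alkylated bases did not pass. NTHL1, which removes oxidised pyrimidines, had 21.1, 24.3 and 19.8 CPM in PS-MP cells, against 28.4, 27.4 and 31.5 CPM in controls. Those groups did not overlap, and the log2 fold change of -0.42 (SE 0.12) had an adjusted p of 0.0557, just above the threshold. MUTYH had 0.521, 0.560 and 0.424 CPM in PS-MP cells, against 1.24, 1.10 and 0.550 CPM in controls. Its counts ran from 8 to 10 in PS-MP cells and from 12 to 24 in controls, control 3 lay at the PS-MP level, and the log2 fold change of -0.91 (SE 0.41) had an adjusted p of 0.200. OGG1, which removes oxidised guanine, had 13.4, 14.7 and 10.4 CPM in PS-MP cells, against 12.2, 11.0 and 14.7 CPM in controls. Its groups overlapped, and the log2 fold change was 0.02 (SE 0.17) with a 95% interval of -0.35 to 0.40 (adjusted p = 0.951). The log2 fold changes of NEIL1, NEIL2 and MPG, the last of which removes alkylated purines, were 0.05, -0.08 and 0.17, each with overlapping groups.

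Glycosylases acting on uracil and mispaired thymine likewise did not pass. UNG, the main uracil glycosylase gene, had 43.3, 39.2 and 40.7 CPM in PS-MP cells, against 51.3, 46.4 and 61.4 CPM in controls. Its groups did not overlap, and the log2 fold change of -0.37 (SE 0.12) had an adjusted p of 0.0865. SMUG1, TDG and MBD4, which encode the other glycosylases of this kind, had log2 fold changes of -0.02, -0.10 and -0.05, with overlapping groups. For the AP endonuclease genes, APEX1 had 216, 225 and 195 CPM in PS-MP cells, against 235, 219 and 257 CPM in controls. The groups overlapped, with a log2 fold change of -0.16 (SE 0.10), a 95% interval of -0.39 to 0.07 and an adjusted p of 0.387. APEX2, its minor relative, had a log2 fold change of -0.10.

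The later steps held the other 3 called genes of the pathway. Of the 5 genes for gap filling, break sensing and ligation, PARP2, LIG3 and XRCC1 fell, against 4.65% of all tested genes called lower. PARP2 encodes a sensor that marks strand breaks with poly(ADP-ribose). It had 18.5, 18.2 and 17.2 CPM in PS-MP cells, against 29.2, 29.1 and 33.3 CPM in controls. The groups were well separated, the log2 fold change was -0.77 (SE 0.11), or 1.70-fold lower, and the adjusted p was 0.00178. PARP1, the more abundant sensor, had 159.9, 154 and 156 CPM in PS-MP cells, against 169.8, 164 and 198 CPM in controls. Its groups did not overlap either, but its log2 fold change was -0.18 (SE 0.10) and its adjusted p 0.312.

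LIG3 encodes the ligase that seals nicks after short-patch repair and the only DNA ligase of mitochondria. It had 37.8, 36.2 and 32.2 CPM in PS-MP cells, against 50.3, 49.2 and 52.8 CPM in controls. Every PS-MP library was below every control. The log2 fold change was -0.52 (SE 0.10), or 1.43-fold lower, with an adjusted p of 0.0105. XRCC1, the scaffold that holds LIG3 at a break, had 18.2, 19.1 and 18.9 CPM in PS-MP cells, against 24.3, 24.5 and 25.9 CPM in controls. Libraries of each group lay close together, and the log2 fold change of -0.41 (SE 0.11), or 1.33-fold lower, had an adjusted p of 0.0380. The XRCC1 call was lost without any of 5 libraries, with an adjusted p of 0.152 without PS-MP 1, 0.0924 without PS-MP 2, 0.107 without control 1, 0.122 without control 2 and 0.0663 without control 3. POLB, the gap-filling polymerase gene, averaged 24.7 ± 3.26 CPM in PS-MP cells and 24.7 ± 1.86 CPM in controls (SD, n = 3 each), with a 95% interval of its log2 fold change of -0.29 to 0.28.

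**Figure D3:**
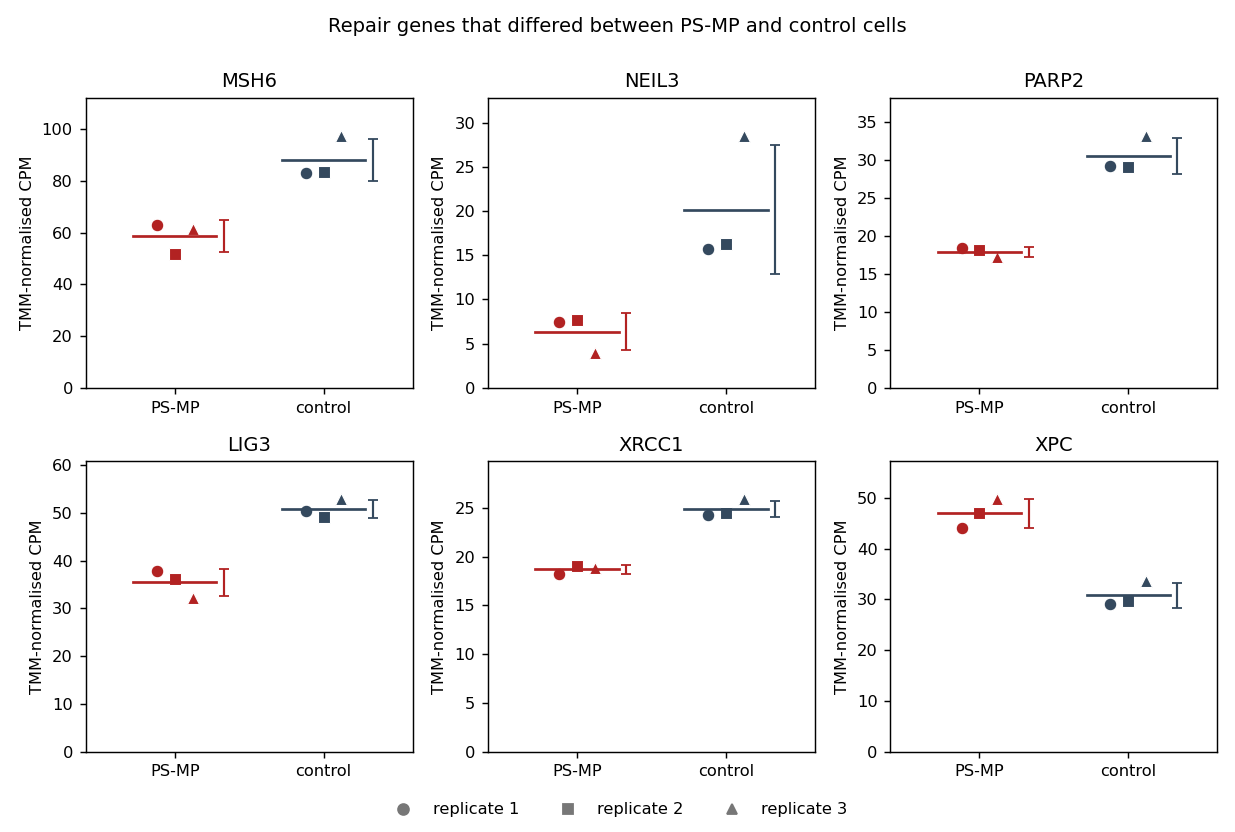
TMM-normalised CPM (vertical axes, starting at 0) of the 6 called repair genes in each PS-MP and control library. Symbols mark the replicate number, horizontal lines the group mean and bars the SD of 3 libraries, and in each panel the groups do not overlap.

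In nucleotide excision repair the damage recognition genes held the only called gene. XPC binds the distorted helix and starts repair across the genome. It had 44.1, 47.0 and 49.8 CPM in PS-MP cells, against 29.1, 29.8 and 33.7 CPM in controls. Every PS-MP library was above every control, the log2 fold change was 0.61 (SE 0.11), or 1.52-fold higher, and the adjusted p was 0.00542. Its partners did not pass. CETN2, the centrin that binds XPC, had 66.5, 79.0 and 66.3 CPM in PS-MP cells, against 55.6, 54.1 and 60.4 CPM in controls. Those groups did not overlap, and the log2 fold change of 0.32 (SE 0.11) had an adjusted p of 0.0999. RAD23B, which stabilises XPC, had a log2 fold change of -0.09 (SE 0.10) with overlapping groups.

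DDB1 and DDB2 encode the complex that finds ultraviolet lesions in chromatin. DDB2, its lesion-binding subunit, had 80.2, 90.5 and 73.4 CPM in PS-MP cells, against 67.4, 66.5 and 69.0 CPM in controls. Its groups did not overlap, and its log2 fold change of 0.27 (SE 0.10) had an adjusted p of 0.147. DDB1, which also serves as an adaptor of ubiquitin ligases, averaged 334 ± 2.67 CPM in PS-MP cells and 339 ± 7.60 CPM in controls (SD, n = 3 each), with a log2 fold change of -0.02 (SE 0.09) and a 95% interval of -0.22 to 0.17.

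Of the transcription-coupled branch, ERCC6 and ERCC8 encode the Cockayne syndrome proteins CSB and CSA, and UVSSA brings TFIIH to the stalled polymerase. None of the 3 passed, all had overlapping groups, and ERCC6 had the highest log2 fold change, at 0.13. Within TFIIH, the helicase genes ERCC2 and ERCC3 had log2 fold changes of 0.09 and -0.10, and the core subunit genes GTF2H1, GTF2H3 and GTF2H5 had 0.12, -0.07 and 0.25. GTF2H2, another core subunit gene, had 5.21, 5.60 and 4.03 CPM in PS-MP cells, against 6.95, 6.58 and 10.4 CPM in controls. Its groups did not overlap, and the log2 fold change of -0.69 (SE 0.22) had an adjusted p of 0.0788. It has a near-identical copy, GTF2H2C, whose log2 fold change was -0.30 with an adjusted p of 0.313, so reads of the copies may have been split between them. GTF2H4 was too low for the test, with 4 to 6 counts in PS-MP libraries and 3 to 4 in controls.

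Damage verification and incision genes did not pass. XPA, which checks the lesion, had 6.43, 6.33 and 5.30 CPM in PS-MP cells, against 5.18, 5.85 and 7.60 CPM in controls. The groups overlapped, with a log2 fold change of -0.05 (SE 0.19) and an adjusted p of 0.903. ERCC1, which forms the nuclease that cuts on the 5′ side, had 106, 121 and 78.5 CPM in PS-MP cells, against 102, 96.1 and 91.1 CPM in controls. Here PS-MP 3 was the lowest library of all and PS-MP 2 the highest, and the log2 fold change was 0.08 (SE 0.14), its adjusted p being 0.793. ERCC4, its nuclease partner, had a log2 fold change of -0.20, and ERCC5, which cuts on the 3′ side, -0.30, both with overlapping groups. For ERCC5, whose counts are uncertain because of the exons it shares with BIVM-ERCC5, the values lay between 1.79 and 2.65 CPM in PS-MP cells and between 1.92 and 3.29 CPM in controls.

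Counted by overlap alone, the group ranges of CPM were separate for 13 of the 41 tested repair genes, against 32% of all tested genes. Of these 13, 10 were lower and 3 higher in PS-MP cells. By pathway the counts were 2 of 5 in mismatch repair, 7 of 18 in base excision repair and 4 of 18 in nucleotide excision repair, a share of all members that lies near the background.

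Ratios within a library compare partners without any scaling between libraries. Reads per kilobase of MSH6 over MSH3 gave 1.19, 1.00 and 1.00 in PS-MP cells, against 1.60, 1.66 and 1.84 in controls. PARP2 over PARP1 gave 0.202, 0.207 and 0.193 in PS-MP cells, against 0.301, 0.310 and 0.294 in controls. XPC over RAD23B gave 0.209, 0.239 and 0.241 in PS-MP cells, against 0.144, 0.141 and 0.139 in controls. In all 3 ratios the groups were apart, with PS-MP cells lower for MSH6 over MSH3 and for PARP2 over PARP1, and higher for XPC over RAD23B. LIG3 over XRCC1, whose transcripts both fell, gave 0.556, 0.509 and 0.457 in PS-MP cells, against 0.554, 0.537 and 0.546 in controls, and here the groups overlapped. A two-sided exact permutation test gave p = 0.1 for each of the first 3 ratios, the smallest p that 3 against 3 libraries allow, and p = 0.4 for the last. With Benjamini-Hochberg adjustment over the 4 ratios these became 0.133 and 0.4, so none could pass 0.05 in this design. Each ratio holds at least 1 gene that had passed the test above, so the ratios describe those differences and are no separate support for them.

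**Figure D4:**
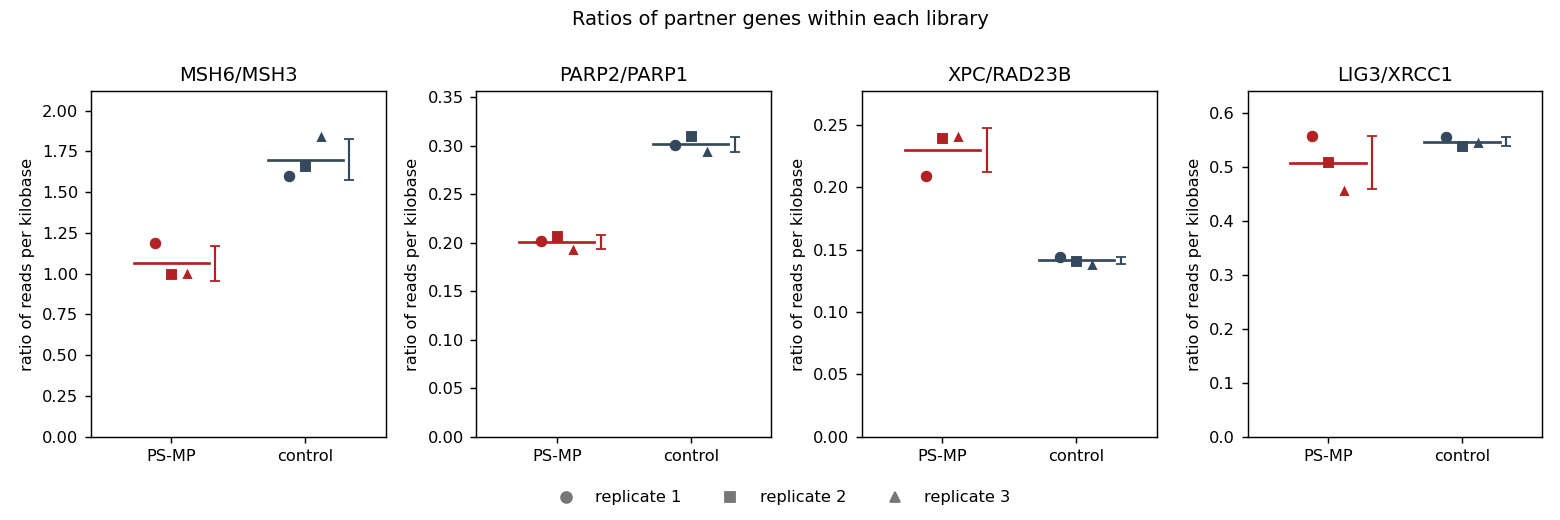
Ratios of reads per kilobase between partner genes within each library (vertical axes, starting at 0), in PS-MP and control cells. Lines are group means, bars the SD of 3 libraries, and symbols the replicate number. The groups are separate for MSH6/MSH3, PARP2/PARP1 and XPC/RAD23B and overlap for LIG3/XRCC1.

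The replicate 3 libraries lay at the end of their group's range for many repair genes. Control 3 was the highest control for 30 of the 41 tested repair genes, PS-MP 3 was the lowest PS-MP library for 22, and for 18 genes both held. No share over all tested genes is given beside these counts, and replicate 3 stood apart over all genes. They are therefore not read as particular to the repair genes. Without both of these libraries 15 repair genes were called, 9 lower and 6 higher. That setting called 26.6% of all 15503 genes tested, 13.1% lower and 13.5% higher. By pathway it called 2 of 5 genes lower in mismatch repair, 6 lower and 1 higher of 18 in base excision repair, and 1 lower and 5 higher of 18 in nucleotide excision repair. All 6 genes called with 6 libraries were among them, with log2 fold changes of -0.54 for MSH6, -0.67 for PARP2, -0.43 for LIG3, -0.39 for XRCC1 and 0.63 for XPC, and the value for NEIL3 given above. The 9 further genes were PMS1, NTHL1, MUTYH and ERCC4, lower in PS-MP cells, and SMUG1, CETN2, DDB2, GTF2H1 and GTF2H5, higher. Among those higher, GTF2H5 reached 0.47 (adjusted p = 0.00490), CETN2 0.41 (adjusted p = 0.00559) and DDB2 0.35 (adjusted p = 0.00619). SMUG1, at -0.02 with 6 libraries, was at 0.29 (adjusted p = 0.0482) and so changed its direction.

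**Figure D5:**
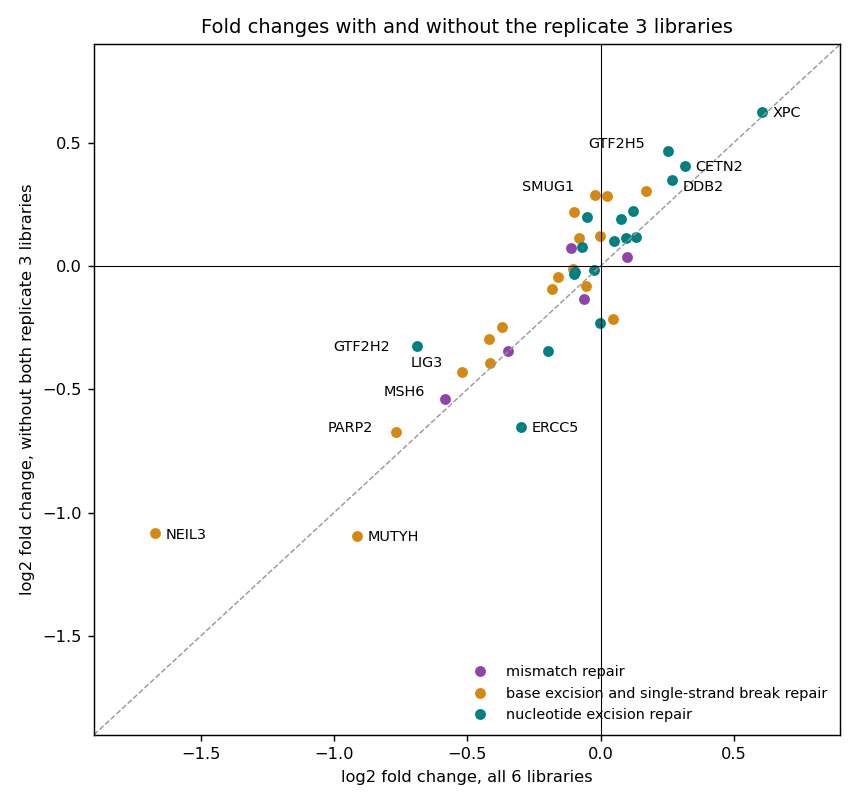
Log2 fold changes (PS-MP over control) of the 41 tested repair genes with all 6 libraries (horizontal axis) and without both replicate 3 libraries (vertical axis), coloured by pathway. The dashed line marks equal values. NEIL3 lies at -1.67 with all libraries and at -1.08 without those 2, while XPC and MSH6 stay close to the line.

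Other genes of the same pathways were counted on lists chosen by function, with earlier results of these data known. The counts are therefore descriptions and no independent support. Of 20 genes for downstream excision, synthesis and ligation, which DNA replication also uses, 16 fell and 0 rose. Of all tested genes 4.65% were called lower and 4.91% higher. The median log2 fold change of the 20 genes was -0.96. They include the ligase gene LIG1, at 18.6 ± 1.01 CPM in PS-MP cells and 45.3 ± 9.01 CPM in controls (SD, n = 3 each), with a log2 fold change of -1.29 (SE 0.15) and an adjusted p of 3.29e-04. The clamp loader gene RFC5 averaged 14.2 ± 1.64 CPM in PS-MP cells and 42.6 ± 10.7 CPM in controls, a log2 fold change of -1.59 (SE 0.18) with an adjusted p of 3.07e-04. PCNA, the sliding clamp of replication and repair synthesis, averaged 204 ± 16.2 CPM in PS-MP cells and 276 ± 29.4 CPM in controls, a log2 fold change of -0.44 (SE 0.11) with an adjusted p of 0.0325. Its call was lost without PS-MP 1 (adjusted p = 0.152), PS-MP 3 (0.0549), control 1 (0.0720), control 2 (0.0612) or control 3 (0.0724). Both DNA ligase genes of excision repair, LIG1 and LIG3, were thus lower in PS-MP cells.

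Of 22 accessory factors of the 3 pathways, 1 rose and 2 fell, 13.6% in all, against 9.56% of all tested genes. Their median log2 fold change was -0.11. PARP3, a PARP enzyme linked to strand break repair, rose, its log2 fold change being 0.70 (SE 0.13) with an adjusted p of 0.00782. HMGB1, a chromatin protein and a cofactor of base excision repair, fell, with a value of -0.91 (SE 0.16) on that scale and an adjusted p of 0.00529, and the third was TDP1, which clears blocked DNA ends, at -0.78 (SE 0.15) with an adjusted p of 0.00809. Among the PARP genes, then, PARP2 fell, PARP3 rose and PARP1 did not pass. Of 4 direct reversal genes, which undo damage without excision, edgeR, DESeq2 and limma-voom each called 0, and 0 had an unadjusted p under 0.05 in edgeR. Over all tested genes edgeR called 9.56%, and 24% had an unadjusted p under 0.05.

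Levels of S phase genes and of p53 target genes also differed between the groups. These 2 lists were likewise drawn up with earlier results of these data known, so their counts are descriptions only. All 22 genes of a list of S phase genes fell, against 4.65% of all tested genes called lower. Their median log2 fold change was -1.95, and CDT1 and MCM2 had the smallest adjusted p (2.06e-04 and 2.71e-04). The summed level of the 22 genes was 379, 356 and 231 CPM in PS-MP cells, against 925, 948 and 1538 CPM in controls. PS-MP 3 was the lowest PS-MP library and control 3 the highest control. This order held for 18 of the 41 tested repair genes, NEIL3, PARP2 and LIG3 among them, with no share over all tested genes given. Control 3 was highest for MSH6 and XRCC1 too, but the lowest library was PS-MP 2 for MSH6 and PS-MP 1 for XRCC1. Of 21 p53 target genes, a list that holds XPC and DDB2, 20 rose, against 4.91% of all tested genes called higher. The median log2 fold change of the 21 was 1.07, and DDB2 was the member that did not pass. CDKN1A, the gene of the cell-cycle inhibitor p21, had 444, 502 and 657 CPM in PS-MP cells, against 119.9, 117 and 134 CPM in controls, a log2 fold change of 2.11 (SE 0.15) with an adjusted p of 4.97e-05. MDM2, which encodes the ubiquitin ligase of p53, reached a log2 fold change of 1.27 (SE 0.10) with an adjusted p of 8.26e-05. The summed level of the 21 genes was 1902, 2021 and 2177 CPM in PS-MP cells, against 955, 970.0 and 953 CPM in controls. The part of these programmes in the repair gene results was not tested.

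Several repair genes share their promoter region or exons with a neighbour. For 15 of them a protein-coding gene on the opposite strand starts within 1000 bases of their own start. LSM3, an RNA-processing gene that starts 196 bases from XPC, was named after its value was seen and was not called. Its log2 fold change was -0.49 with an adjusted p of 0.10. Exons of 12 repair genes overlap exons of another gene over at least 10% of their length. For called genes these were RFFL over 29.1% of LIG3, XPC-AS1 over 23.8% of XPC, FBXO11 over 16.2% of MSH6 and a non-coding gene with 0 counts over 15.5% of XRCC1, all on the opposite strand. XPC-AS1 had mean counts of 22.7 in PS-MP cells and 33.7 in controls, against 846 and 627 for XPC. For LIG3 and MSH6 the counts of the overlapping gene were nearer to those of the repair gene. RFFL had mean counts of 470 in PS-MP cells and 519 in controls, against 635 and 1028 for LIG3. FBXO11 had mean counts of 653 in PS-MP cells and 781 in controls, against 1058 and 1789 for MSH6. The library kit keeps strand, but whether counting used it is not given in the sources used here, so values of genes that overlap on opposite strands are uncertain. Same-strand overlaps over at least 10% of the length, which strand cannot resolve, were those of ERCC5 with BIVM-ERCC5 and of ERCC8 with GNL3LP1 (28.3% of ERCC8), so these values are uncertain in either case.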

How the data were processed

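The values used were raw counts per Ensembl gene, as deposited by the authors, with 1 column per library (3 PS-MP, 3 control). Per the labels' protocols, libraries were poly(A)-selected with a stranded Illumina kit. The submitters' processing notes name fastp, HISAT2, StringTie, RSEM and DESeq2 and the build GRCh38, with no version or role, and featureCounts stands in the table's name. Whether counting used strand, how multi-mapping reads were treated and which annotation release was used are not given in the sources used here.

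The 42 genes, all gene lists and the choice of tests were made with earlier results of these data known. Genes passed filterByExpr on the group (15458 genes), libraries were scaled by TMM, and groups were compared in edgeR 4.0.16 (R 4.3.3), using its robust two-sided quasi-likelihood test and p-values adjusted by Benjamini-Hochberg over all tested genes (threshold 0.05). The procedure was tested on simulated data. SEs of log2 fold changes were approximated from the test statistic. TPM used the merged lengths of all exons annotated in GENCODE release 29, in which 92.9% of the gene IDs and all 42 repair genes were found. Promoters came from RefSeq (GRCh38.p14), which held 39 of the 42. No protein sequences were used here. The depth of 17013293 to 21316451 counts places 3 counts at 0.141 to 0.176 CPM, which covers counting error only.

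Full values per library are given for every called repair gene, for the 3 uncalled tested genes of each pathway with the smallest adjusted p, and for XRCC1, APEX1, PARP1, OGG1, XPA, XPC, DDB2 and ERCC1. From the other lists the 2 called genes with the smallest adjusted p are named, plus PCNA and CDKN1A. TDP1 and LSM3 were named after their values were seen. A result for 1 neighbouring gene is not reported here. Of the 15 alternatives, DESeq2 1.42.0 and limma-voom (limma 3.58.1) changed the tool, RLE, total-count and upper-quartile scaling replaced TMM, and the low-count filter was dropped or set to a mean count of 10. The others added a block for replicate number, left out single libraries, or left out both replicate 3 libraries. The last was chosen after the data were seen.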

Additional observations from a re-analysis of the deposited data

How the results depend on the processing

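Across the 15 alternatives MSH6, NEIL3, PARP2 and XPC passed every time, with log2 fold changes of -0.65 to -0.50, -1.84 to -1.08, -0.83 to -0.67 and 0.54 to 0.67. LIG3 was lost with the replicate block (adjusted p = 0.0601). XRCC1 was lost with the replicate block (0.133), with no filter (0.0670) and without any of 5 libraries. NTHL1 was gained with DESeq2 (0.0439), no filter (0.0478), total counts (0.0315) and without both replicate 3 libraries (0.0407), and GTF2H2 with DESeq2 (0.0453) and no filter (0.0152). The replicate numbers did not pair the samples: same-numbered libraries correlated at -0.09, -0.11 and -0.18 in their deviations from the group means, and no library correlated best with its own number. With that block, 333 genes of all tested were higher and 417 lower, and base excision repair kept 2 lower.

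Over all genes, leaving out 1 library gave 356 to 885 higher and 415 to 811 lower (356 and 415 without PS-MP 1, 361 and 438 without PS-MP 2, 375 and 512 without control 1, 392 and 504 without control 2), and leaving out both replicate 3 libraries gave 2093 and 2036. Without both replicate 3 libraries there were 2 lower in mismatch repair, 1 higher in base excision repair, and 5 higher and 1 lower in nucleotide excision repair. DESeq2 and no filter each gave 1 lower in nucleotide excision repair, beside 828 lower of 15158 genes for DESeq2 and 963 lower of 33003 with no filter. The nucleotide excision repair median was -0.040 with total counts, 0.11 without both replicate 3 libraries and -0.0046 to 0.10 over single libraries left out.

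Among uncalled genes the sign of small log2 fold changes turned in 14. Leaving out single libraries gave -0.14 to 0.19 for SMUG1, -0.21 to 0.10 for TDG, -0.11 to 0.016 for MBD4, -0.089 to 0.16 for OGG1, -0.18 to 0.28 for NEIL1, -0.19 to 0.062 for NEIL2, -0.21 to 0.0018 for APEX2, -0.12 to 0.066 for POLB, -0.0088 to 0.11 for ERCC8, -0.16 to 0.13 for UVSSA, -0.17 to 0.15 for GTF2H3, -0.17 to 0.12 for XPA and -0.071 to 0.23 for ERCC1. Without both replicate 3 libraries the values were 0.075 for PMS2, 0.29 for SMUG1, 0.22 for TDG, -0.22 for NEIL1, 0.11 for NEIL2, 0.12 for POLB, 0.078 for GTF2H3 and 0.20 for XPA. Total counts gave -0.044 for OGG1, -0.014 for NEIL1 and -0.016 for ERCC8, upper-quartile scaling 0.0093 for POLB and 0.0089 for UVSSA, and limma-voom and the replicate block 0.023 and 0.016 for UVSSA. The cause was not tested. With 3 libraries a group, small differences could not be resolved: the 95% interval of OGG1, for example, ran from -0.35 to 0.40, and MUTYH and GTF2H4 had at most 24 and 6 counts.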
